A study of Rattus norvegicus with 32 samples.

Results

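Nuclear receptor coregulators are proteins that hormone receptors recruit to chromatin to raise or lower the transcription of their target genes. The genes described here were chosen by symbol. The list names 8 coregulators, and 7 of them have a row in the table of 17327 rat genes, matched through their NCBI gene IDs: Nrip1 (304157), Ncoa1 (313929), Ncoa2 (83724), Ncor1 (54299), Trim24 (500084), Cited4 (114491) and Ppargc1a (83516). All 7 passed the filter on low counts that left 13312 genes for testing. Ncoa3 was not analysed here.

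The RNA came from the uterus of rats of the Sprague-Dawley/CD23/NctrBR stock, bred in the NCTR colony. Dosing was by oral gavage, to the dams between gestation day 6 and the start of labor, and to the pups themselves from postnatal day (PND) 1 to PND365. The uterus was collected at PND365 in every group. Bisphenol A (BPA), a plastics monomer that binds estrogen receptors weakly, was given at 5 daily doses of 2.5, 25, 250, 2500 and 25000 µg/kg, 1 to a group. A further pair of groups received ethinyl estradiol (EE2), an estrogen that is active by mouth, at 0.05 or 0.5 µg/kg daily. The control group received the vehicle, 0.3% carboxymethylcellulose. Each of the 8 groups has 4 libraries, 32 in all, and replicates are numbered 1 to 4 within a group in the order in which they are listed. The labels name no litter, batch or stage of the estrous cycle and do not say that the libraries of a group came from separate animals, so the p-values measure the spread between these libraries, part of which may be technical. In bulk RNA of a tissue, fewer cells of a type and less RNA per cell cannot be told apart.

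In the absence of hormone, several receptors bind a corepressor such as NCOR1, which brings histone deacetylases to the gene. Binding of an agonist changes the shape of the receptor so that coactivators of the p160 family (NCOA1, NCOA2 and NCOA3, also called steroid receptor coactivators) dock through short leucine-rich motifs and bring histone acetyltransferases. NRIP1, also called RIP140, docks on the same agonist-bound surface but mostly represses, and in mice it is needed for ovulation. In the uterus the balance of these proteins bears on how estrogen and progesterone receptors act.

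Total counts per library were between 11777809 and 24661856, and depth differed by group. The mean was 13710994 in controls, 14890357 at EE2 0.05, 16448646 at EE2 0.5, 13921222 at BPA 2.5 and 14015998 at BPA 25. It was higher at BPA 250 (18603102), BPA 2500 (18976666) and BPA 25000 (19093263). No pair of libraries was identical, and the closest pair within a group still differed by 12.6 times sampling noise (chi-square per degree of freedom). Of 8 uterine markers listed, 6 were in the table and each was above 0 in every library. The receptors that these coregulators serve were measured alongside: Esr1, the main uterine estrogen receptor, was between 70.7 and 210 CPM (read counts relative to the TMM-scaled size of each library), and Pgr, the progesterone receptor, between 72.1 and 326 CPM. A set of 4 libraries stood apart from the rest by their rank correlation with the others: BPA 2.5 replicates 1 and 3 (median Spearman 0.912 and 0.932), BPA 250 replicate 1 (0.943) and BPA 25000 replicate 3 (0.943), against at least 0.953 in each of the other 28. Calls that change without these 4 are given with each result.

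Promoter sequence is shown for 4 of the genes whose levels changed in at least one dose group, since Trim24 and Cited4 fell in the same groups while Nrip1 and Ppargc1a had other patterns. RefSeq's table for assembly GRCr8 held 6 of the 7 genes. Each line is the 250 bases before the annotated gene start, read 5′ to 3′ on the gene's strand. The windows are Nrip1 at chr11:28466413-28466662 (minus strand), Trim24 at chr4:67534085-67534334 (plus strand), Cited4 at chr5:139531915-139532164 (plus strand) and Ppargc1a at chr14:63634058-63634307 (plus strand). Capitals mark matches to 3 short motifs on either strand: the GC box GGGCGG, the motif GGTCA, which is a single arm of the palindromic estrogen response element, and the cyclic AMP response element TGACGTCA.
Nrip1: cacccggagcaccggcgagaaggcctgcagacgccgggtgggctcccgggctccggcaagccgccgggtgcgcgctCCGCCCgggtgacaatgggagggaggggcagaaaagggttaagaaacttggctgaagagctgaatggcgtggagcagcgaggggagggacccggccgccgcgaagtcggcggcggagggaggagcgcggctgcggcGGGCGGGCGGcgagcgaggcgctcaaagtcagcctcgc
Trim24: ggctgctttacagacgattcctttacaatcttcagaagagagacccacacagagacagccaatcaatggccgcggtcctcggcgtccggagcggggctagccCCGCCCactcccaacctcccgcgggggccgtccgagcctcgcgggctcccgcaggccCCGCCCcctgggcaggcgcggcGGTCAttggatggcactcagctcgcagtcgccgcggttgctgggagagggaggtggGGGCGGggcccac
Cited4: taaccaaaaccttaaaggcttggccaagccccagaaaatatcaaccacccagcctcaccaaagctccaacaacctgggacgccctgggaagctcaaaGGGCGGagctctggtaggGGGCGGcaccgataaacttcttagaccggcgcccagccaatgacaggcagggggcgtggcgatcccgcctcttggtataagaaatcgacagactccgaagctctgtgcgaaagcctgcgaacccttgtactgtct
Ppargc1a: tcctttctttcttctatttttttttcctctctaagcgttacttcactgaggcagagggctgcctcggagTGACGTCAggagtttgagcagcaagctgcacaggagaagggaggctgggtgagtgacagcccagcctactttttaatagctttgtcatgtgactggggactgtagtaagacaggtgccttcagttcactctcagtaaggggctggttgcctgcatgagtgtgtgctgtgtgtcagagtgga
The Nrip1 window held 3 GC boxes, of which the 2 nearest the gene start overlap each other. The Trim24 window held 3 GC boxes and 1 GGTCA, which begins 69 bases before the gene start. The Cited4 window held 2 GC boxes, and the Ppargc1a window held none but had 1 cyclic AMP response element, which begins 181 bases before the gene start. The full element GGTCANNNTGACC had no match in the windows of the 6 genes. Of all 33469 windows of the same length, 30.5% held a GC box, 35.4% a GGTCA, 1.59% a cyclic AMP response element and 0.0239% the full element. The windows of Trim24 and Nrip1 were 70% and 73.2% G or C, those of Cited4 and Ppargc1a 56.8% and 50.4%, and the median of all windows was 51.2%. A match describes the letters of the window and not the binding of a factor.

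**Figure D1:**
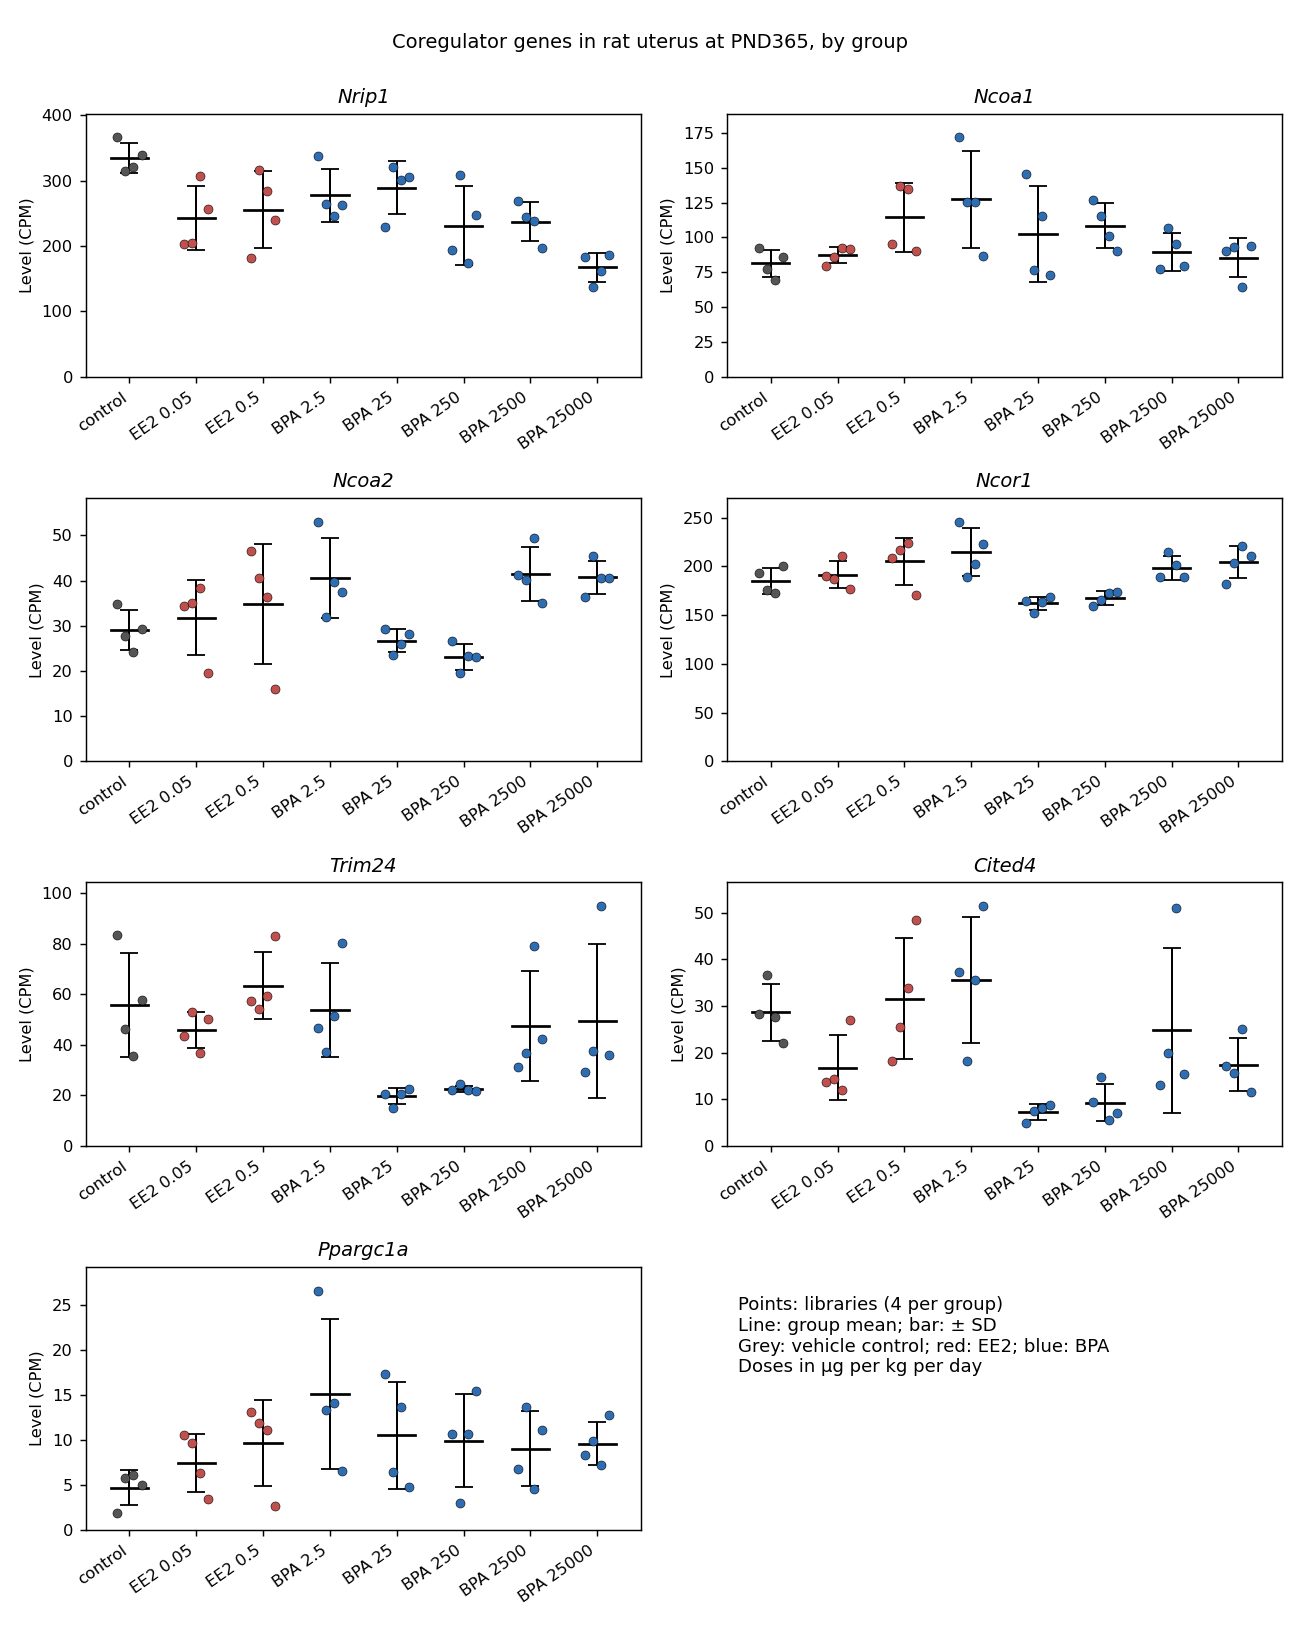
Levels of the 7 coregulator genes (CPM, linear axes from 0) in each of the 32 libraries, by group; points are libraries, lines are group means and bars are SD. All 4 Nrip1 values at BPA 25000 lie below every control library, and all 8 Trim24 values at BPA 25 and BPA 250 lie below the other 24 libraries.

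Among the repressors, Nrip1 fell at the highest BPA dose. Its level was 184, 138, 162 and 186 CPM at BPA 25000, against 366, 314, 320 and 339 CPM in control libraries. The highest BPA 25000 library was thus well below the lowest control. Group means were 167 ± 22.5 CPM at BPA 25000 and 335 ± 23.2 CPM in controls (SD, n = 4 each). The log2 fold change was -1.0 (SE 0.18, 95% interval -1.37 to -0.63), with an adjusted p of 0.00956 in edgeR's quasi-likelihood test over all tested genes, and Nrip1 ranked 8 of 13312 genes by p. It was the 1 coregulator gene of 7 called at this dose, where 2.32% of all genes were called and 0.962% were called lower. Some other markers of the tissue were also low at this dose. The 6 uterine markers summed to 550, 396, 594 and 413 CPM at BPA 25000, against 691, 636, 597 and 633 CPM in controls, with every BPA 25000 library below every control. Pgr, which is one of the 6, measured 203, 72.1, 209 and 78.7 CPM at BPA 25000, against 224, 326, 223 and 286 CPM in controls. Esr1, another of the 6, measured 145, 171, 131 and 158 CPM at BPA 25000, against 188, 144, 107 and 147 CPM in controls, and was not low. The uterine marker sum was also below every control at EE2 0.05, BPA 2.5 and BPA 250. Its highest values there were 569, 596 and 584 CPM. The smooth muscle markers summed to 16154, 16653, 21515 and 16727 CPM at BPA 25000, with 3 libraries below the lowest control sum of 17691 CPM. Their part in the Nrip1 result was not tested.

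Nrip1 had its highest group mean in controls, and the 7 exposed groups all had negative log2 fold changes. By dose of BPA the means were 335 CPM in controls, 277 ± 40.7 at 2.5, 289 ± 40.7 at 25, 231 ± 60 at 250, 237 ± 29.5 at 2500 and 167 ± 22.5 at 25000. The 7 comparisons share the same 4 control libraries. Besides BPA 25000, the libraries lay below every control at EE2 0.05 (204, 205, 306 and 257 CPM), at BPA 250 (194, 308, 174 and 248 CPM) and at BPA 2500 (268, 245, 238 and 197 CPM). Such a complete separation downward was seen for 5.66%, 9.77% and 3.75% of all genes at those doses, and for 7.14% at BPA 25000. The log2 fold changes there did not pass: -0.46 at EE2 0.05 (adjusted p 0.326), -0.53 at BPA 250 (adjusted p 0.0566) and -0.50 at BPA 2500 (adjusted p 0.345).

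Across the 5 BPA groups Nrip1 also fell with dose, by 0.17 on the log2 scale per log10 unit of dose (SE 0.04, adjusted p 0.0212), a contrast in which control libraries do not enter. It was the 1 coregulator gene called for this slope, against 4.62% of all genes, and 3.42% with a negative slope. The call at BPA 25000 was lost without control replicate 2 (log2 fold change -1.03, adjusted p 0.0502) or BPA 25000 replicate 2 (-0.92, adjusted p 0.0570), and kept without the other single libraries. The slope lost its call without BPA 2.5 replicate 1 (adjusted p 0.0881), without BPA 25000 replicate 2 (adjusted p 0.0584), without the 4 libraries that stand apart (-0.15, adjusted p 0.111) and in a fit of the BPA groups alone (adjusted p 0.0663).

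Ncor1, the scaffold of the deacetylase corepressor complex, varied least of the coregulators. Its levels over the 32 libraries were between 152 and 246 CPM, and its biological coefficient of variation, the spread between libraries of a group beyond counting error, was 11.7%, lower than in all but 0.413% of tested genes. None of the 7 comparisons with control passed. The smallest p was at BPA 2.5, with 246, 189, 202 and 223 CPM against 193, 175, 173 and 200 CPM in controls, a log2 fold change of 0.21 (SE 0.10, adjusted p 0.184). At BPA 25 the 4 libraries (164, 152, 163 and 168 CPM) lay below every control, and the log2 fold change was -0.19 (95% interval -0.41 to 0.02, adjusted p 0.249), at a dose where 9.79% of genes were separated downward. The equality of all 8 group means was nevertheless rejected for Ncor1 (adjusted p 0.0221). Its lowest means were 162 ± 6.85 CPM at BPA 25 and 168 ± 6.87 CPM at BPA 250, and its highest 215 ± 24.7 CPM at BPA 2.5.

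**Figure D2:**
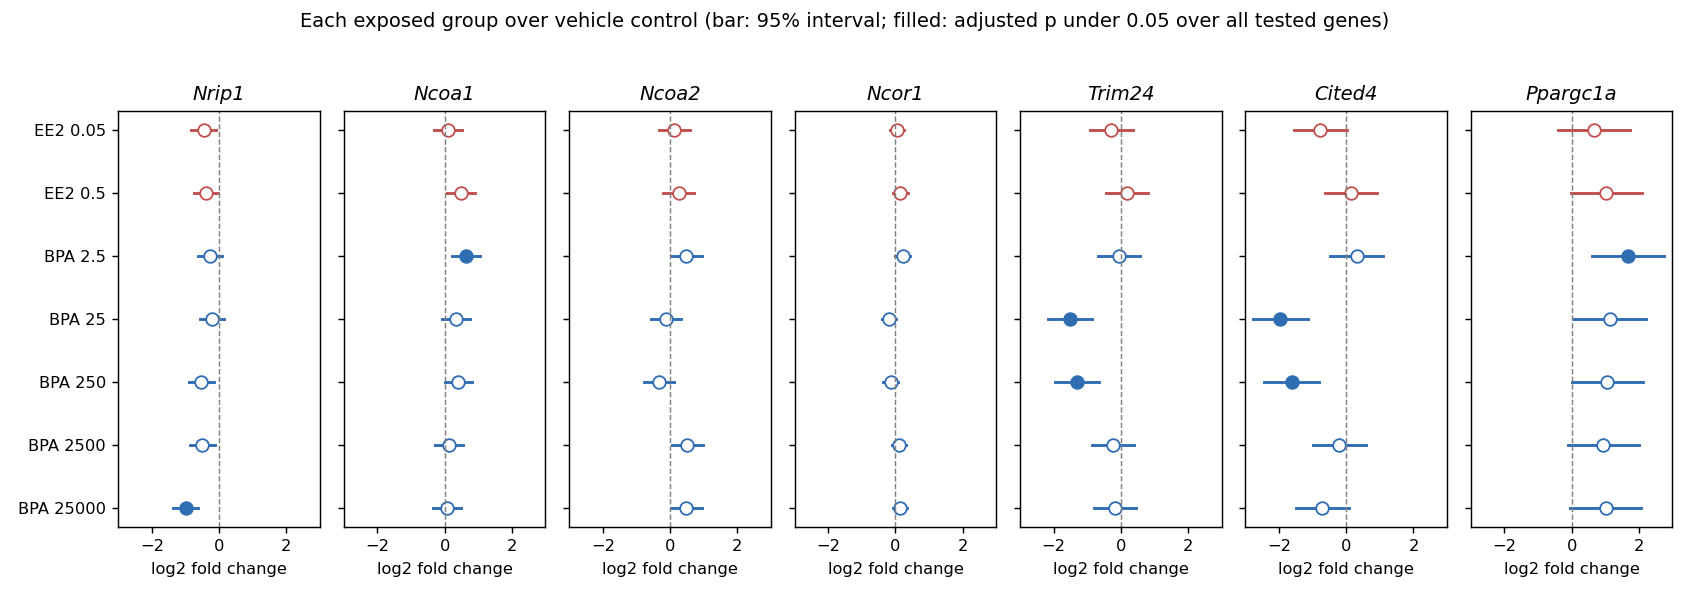
Log2 fold changes of each exposed group over vehicle control for the 7 coregulator genes, with 95% intervals; filled points have an adjusted p under 0.05 over all tested genes. The filled points are Nrip1 at BPA 25000, Ncoa1 and Ppargc1a at BPA 2.5, and Trim24 and Cited4 at BPA 25 and BPA 250.

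Of the p160 coactivators, Ncoa1 rose at the lowest BPA dose. It measured 172, 126, 125 and 86.9 CPM at BPA 2.5, against 92.2, 77.6, 69.8 and 86.3 CPM in controls. Replicates 1 to 3 were above every control and replicate 4 was within their range. The means were 127 ± 34.7 CPM at BPA 2.5 and 81.5 ± 9.81 CPM in controls, a log2 fold change of 0.64 (SE 0.20, 95% interval 0.23 to 1.06, adjusted p 0.0369). Ppargc1a, a coactivator of PPAR and estrogen-related receptors known for driving mitochondrial biogenesis, was the other coregulator gene called at this dose. It measured 26.6, 13.4, 14.1 and 6.56 CPM at BPA 2.5 and 1.90, 5.85, 6.09 and 5.08 CPM in controls, so every BPA 2.5 library was above every control, a separation upward that 6.45% of genes had. Its log2 fold change was 1.68 (SE 0.52, 95% interval 0.60 to 2.75, adjusted p 0.0360). The 2 calls among 7 genes stand beside 11.4% of all tested genes called at this dose, with 7.06% of all tested genes called higher. By p they ranked 1275 and 1255 of the 13312 genes.

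Markers of other cell types moved in the same libraries. The 8 ciliated cell markers in the table, of 9 listed, summed to 842, 67.4, 559 and 34.9 CPM at BPA 2.5 and to 41.2, 41.4, 32.2 and 34.0 CPM in controls. Foxj1, the master regulator of motile cilia, reached 95.8 CPM in BPA 2.5 replicate 1 and was at 0 in 3 of the 32 libraries. Its median was 1.69 CPM, against 40.5 CPM for Ccdc39, which weighs most in low ciliated sums. The 7 squamous epithelium markers in the table, of 8 listed, summed to between 34.5 and 38.5 CPM at BPA 2.5 and between 3.62 and 4.88 CPM in controls. High squamous sums were also seen under EE2, where neither Ncoa1 nor Ppargc1a was called. They were 5.13, 4.17, 408 and 140 CPM at EE2 0.05 and 90.5, 232, 33.6 and 182 CPM at EE2 0.5. The 10 fat cell markers summed to between 457 and 951 CPM at BPA 2.5 and between 212 and 750 CPM in controls. Most of that sum is Adipoq, Pnpla2 and Lpl, and the fat markers Fabp4, Lep, Plin1, Cidec and Pck1 each had their highest value in BPA 2.5 replicate 3 (Fabp4 at 128 CPM, against a median of 4.24 CPM over the 32 libraries, and Lep at 32.3 CPM, against a median of 0.82 CPM). Ucp1, the defining gene of brown fat, was at most 0.624 CPM in any library and at 0 in 14. Within BPA 2.5, Ncoa1 and Ppargc1a were both highest in replicate 1, the library with the most ciliated marker RNA, and lowest in replicate 4, the one with the least. Replicates 2 and 3, with ciliated sums of 67.4 and 559 CPM, had similar Ncoa1 (126 and 125 CPM) and Ppargc1a (13.4 and 14.1 CPM). The part of ciliated, squamous or fat cells in these results was not tested.

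Both calls at BPA 2.5 rested on few libraries. Without the 4 libraries that stand apart, which include BPA 2.5 replicates 1 and 3, the log2 fold change was 0.39 for Ncoa1 (adjusted p 0.363) and 1.08 for Ppargc1a (adjusted p 0.365). In a fit of these 8 libraries alone the adjusted p was 0.132 for Ncoa1 and 0.0971 for Ppargc1a. The Ncoa1 call was lost without BPA 2.5 replicate 1 (0.47, adjusted p 0.176) or 3 (adjusted p 0.0648), and without control replicate 2 (adjusted p 0.0892), 3 (adjusted p 0.127) or 4 (adjusted p 0.0635). The Ppargc1a call was lost without BPA 2.5 replicate 1 (1.26, adjusted p 0.163) or 3 (adjusted p 0.0590), and without control replicate 1 (adjusted p 0.0996), 2 (adjusted p 0.0621), 3 (adjusted p 0.0693) or 4 (adjusted p 0.0724).

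**Figure D3:**
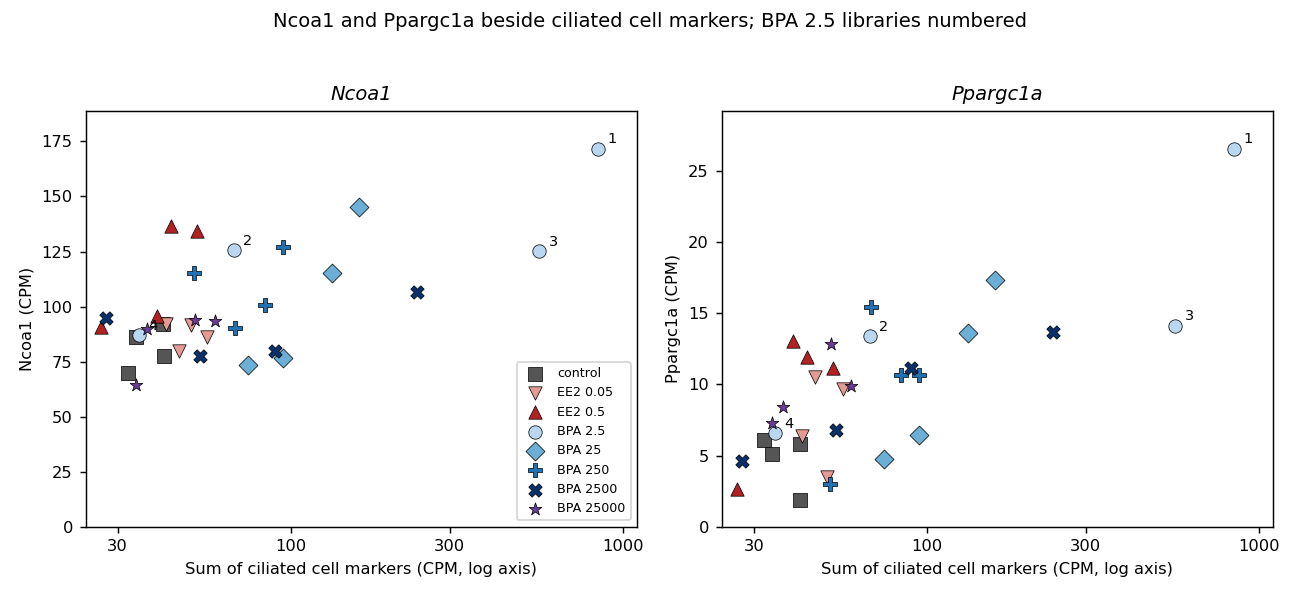
Ncoa1 and Ppargc1a (CPM, linear axes) against the summed level of 8 ciliated cell markers (CPM, log axis) in the 32 libraries, with the BPA 2.5 libraries numbered by replicate. BPA 2.5 replicates 1 and 3 have ciliated sums of 842 and 559 CPM; replicate 1 has the highest Ncoa1 (172 CPM) and Ppargc1a (26.6 CPM) of all libraries.

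At the other doses neither gene passed. Ncoa1 averaged 81.5 CPM in controls, 103 ± 34.3 at BPA 25, 108 ± 16.2 at BPA 250, 89.6 ± 13.7 at BPA 2500 and 85.5 ± 14.1 at BPA 25000. At EE2 0.5 it measured 95.6, 137, 135 and 90.5 CPM, with 3 libraries above every control and a log2 fold change of 0.49 (95% interval 0.07 to 0.90, adjusted p 0.233). Ppargc1a had a positive log2 fold change in all 7 exposed groups, from 0.66 at EE2 0.05 to 1.68 at BPA 2.5, all of them set against the same 4 control libraries, of which replicate 1 (1.90 CPM) was the lowest value of the 32. Its counts were low, between 22 and 419 reads per library, and its coefficient of variation was 49.1%, higher than in 82.2% of tested genes. At BPA 25000 its 4 libraries (8.40, 9.92, 7.30 and 12.8 CPM) were above every control, as were those of 6.16% of genes, with a log2 fold change of 1.02 (95% interval -0.04 to 2.08, adjusted p 0.279). Neither gene passed the test across all 8 groups (adjusted p 0.0792 for Ncoa1 and 0.266 for Ppargc1a).

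Ncoa2, the second p160 coactivator, passed the test across the 8 groups (adjusted p 0.0214) but in no comparison with control. Its group means were lowest at BPA 25 and BPA 250, and the slope over dose did not pass. They were 29.1 ± 4.46 CPM in controls, 40.6 ± 8.89 at 2.5, 26.7 ± 2.53 at 25, 23.2 ± 2.82 at 250, 41.4 ± 5.9 at 2500 and 40.8 ± 3.68 at 25000 (slope 0.06 per log10 unit of dose, adjusted p 0.456). At BPA 2500 its libraries measured 41.2, 40.1, 49.4 and 35.1 CPM, against 34.9, 27.8, 24.2 and 29.4 CPM in controls. All 4 were above every control, as for 4.22% of genes, and the log2 fold change was 0.51 (SE 0.22, 95% interval 0.05 to 0.97, adjusted p 0.435). At BPA 25000 the 4 libraries (36.5, 45.5, 40.5 and 40.6 CPM) were likewise above every control, as for 6.16% of genes. The log2 fold change there was 0.49 (adjusted p 0.228). Ncoa2 and Ncor1 varied together over the 32 libraries (Pearson r 0.79 on log2 CPM, and 0.71 after removing group means), in libraries of 1 tissue and 8 groups.

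Trim24 and Cited4 fell together at the middle doses of BPA. TRIM24, also called TIF1-alpha, is a bromodomain protein and ubiquitin ligase that binds agonist-bound receptors, and in human breast cancer cells it is a coactivator of the estrogen receptor. CITED4 binds the acetyltransferases CBP and EP300 and acts as a coactivator of AP-2 factors. They were the 2 coregulator genes of 7 called at BPA 25, where 1.92% of all genes were called and 0.969% were called lower (a share of higher calls of 49.6% with TMM and 60.4% with DESeq2 size factors), and again the 2 called at BPA 250, where 8.79% were called and 4.35% were called lower.

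Trim24 measured 20.5, 14.97, 20.4 and 22.5 CPM at BPA 25, against 83.6, 46.0, 35.7 and 57.7 CPM in controls. At BPA 250 it measured 22.1, 24.4, 22.01 and 21.6 CPM. These 8 libraries lay between 14.97 and 24.4 CPM, below each of the other 24, whose lowest was 29.3 CPM. This split, picked out after the values were seen, was shared by 0.323% of all tested genes, while 9.79% had all BPA 25 libraries and 9.77% all BPA 250 libraries below every control. The means were 19.6 ± 3.22 CPM at BPA 25, 22.5 ± 1.25 CPM at BPA 250 and 55.7 ± 20.6 CPM in controls. The log2 fold change was -1.51 at BPA 25 (SE 0.32, 95% interval -2.16 to -0.86, adjusted p 0.0273) and -1.31 at BPA 250 (SE 0.32, 95% interval -1.95 to -0.66, adjusted p 0.0152).

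At the doses on either side Trim24 overlapped the controls. Its mean was 53.8 ± 18.5 CPM at BPA 2.5, 47.3 ± 21.7 at BPA 2500, 49.4 ± 30.4 at BPA 25000, 45.9 ± 7.13 at EE2 0.05 and 63.4 ± 13.3 at EE2 0.5. The log2 fold changes there were between -0.28 and 0.19, with intervals no lower than -0.91, and the group means differed in the test across the 8 groups (adjusted p 0.00117). In the order of group means, the libraries of every neighbouring pair overlapped for each of the 7 genes, except those of Trim24 at BPA 250 and at the next group up. Of all tested genes, 6.77% had at least 1 such gap.

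Cited4 measured 4.84, 7.49, 8.21 and 8.78 CPM at BPA 25 and 9.41, 14.7, 5.61 and 7.10 CPM at BPA 250, against 28.2, 36.7, 27.5 and 21.9 CPM in controls. Every library of both doses lay below every control, a separation downward that 9.79% of genes had at BPA 25 and 9.77% at BPA 250. The log2 fold change was -1.96 at BPA 25 (SE 0.40, 95% interval -2.79 to -1.13, adjusted p 0.0273) and -1.63 at BPA 250 (SE 0.40, 95% interval -2.44 to -0.81, adjusted p 0.0157). At the other BPA doses the mean was 35.5 ± 13.6 CPM at 2.5, 24.8 ± 17.7 at 2500 and 17.4 ± 5.66 at 25000, beside 28.6 ± 6.1 CPM in controls, and no call was made. At EE2 0.05 it measured 13.6, 14.3, 12.1 and 27.04 CPM, a log2 fold change of -0.77 (95% interval -1.56 to 0.02, adjusted p 0.452), and at EE2 0.5 it averaged 31.5 ± 13 CPM. Cited4 had the smallest p of the coregulators across the 8 groups (adjusted p 0.00057). In total 5 of the 7 genes passed that test, where 31.7% of all genes did.

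Without all 4 libraries that stand apart, the calls for Trim24 and Cited4 were kept. The adjusted p was 0.00943 for Trim24 and 0.0128 for Cited4 at BPA 25, and 0.0200 and 0.0376 at BPA 250. Leaving out BPA 250 replicate 1 alone, which is one of the 4, ended both BPA 250 calls. Single libraries moved the adjusted p across the threshold, though. At BPA 25 the Trim24 call was lost without any 1 control library (replicate 1 adjusted p 0.0615, 2 0.0738, 3 0.0545, 4 0.0780) or without BPA 25 replicate 1 (adjusted p 0.125), 2 (0.0631) or 3 (0.0515), with log2 fold changes between -1.67 and -1.25. The Cited4 call at BPA 25 was lost without control replicate 2 (adjusted p 0.0755), 3 (0.0565) or 4 (0.0744), or without BPA 25 replicate 1 (0.125) or 3 (0.0515), with log2 fold changes between -2.07 and -1.80. At BPA 250 the Trim24 call was lost without control replicate 1 (-1.05, adjusted p 0.0518) or BPA 250 replicate 1 (-1.27, adjusted p 0.0595), and the Cited4 call without BPA 250 replicate 1 (-1.60, adjusted p 0.0590) or 4 (-1.52, adjusted p 0.0543).

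Markers of the main uterine cell types were set beside these values. The 6 markers of stroma, all in the table, summed to 21133, 19332, 20460 and 22762 CPM at BPA 250, above each of the control sums of 6443, 14345, 17440 and 10685 CPM. At BPA 25 the sums were 13831, 20269, 10441 and 18410 CPM and overlapped the controls. Epithelial markers, all 8 in the table, summed to between 503 and 1820 CPM at BPA 25 and between 861 and 2030 CPM at BPA 250, and to between 1003 and 2062 CPM in controls. The 8 smooth muscle markers, all in the table, summed to 15384, 15037, 12574 and 18168 CPM at BPA 25 and to between 16460 and 20908 CPM at BPA 250, against 21103, 34027, 17691 and 25845 CPM in controls, so 3 of the 4 BPA 25 libraries were below every control. The 8 ciliated cell markers summed to between 74.0 and 160 CPM at BPA 25 and between 50.9 and 94.2 CPM at BPA 250, all above the highest control at 41.4 CPM. Of the 8, Ccdc39 had a median of 40.5 CPM over the 32 libraries. The medians of the others were between 0.606 and 2.24 CPM, so the sum is weighted to this 1 gene. The uterine marker sum lay between 398 and 584 CPM at BPA 250, below every control (597 to 691 CPM). The part of these shifts in the Trim24 and Cited4 values was not tested.

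**Figure D4:**
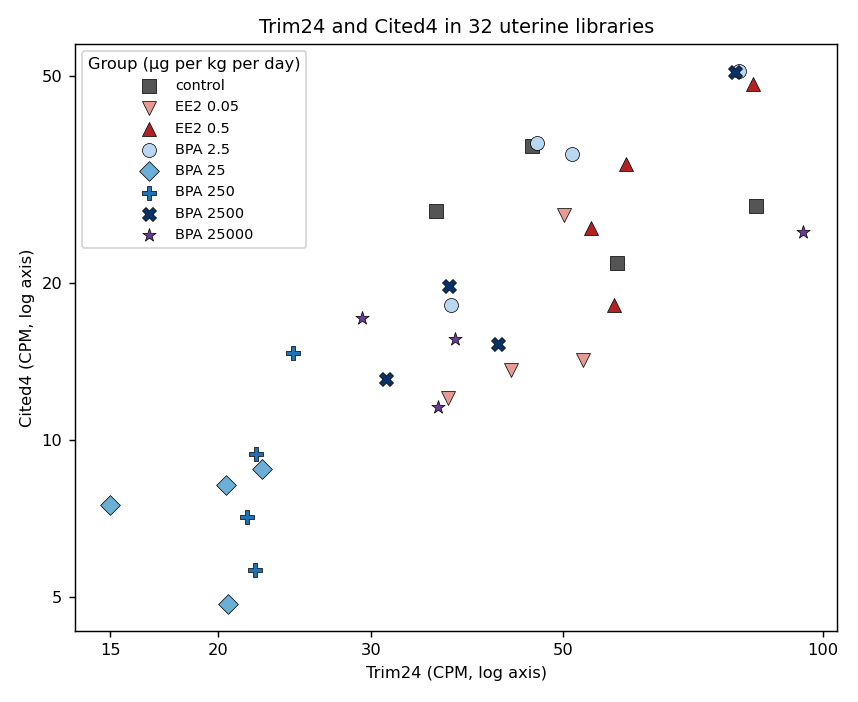
Trim24 against Cited4 in each of the 32 libraries (CPM, log axes), with symbols by group. The 8 libraries of BPA 25 and BPA 250 sit at the lower left, with Trim24 between 14.97 and 24.4 CPM and Cited4 between 4.84 and 14.7 CPM.

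Over the 32 libraries Trim24 and Cited4 had a Pearson r of 0.84 on log2 CPM, and 0.60 after removing group means. The genes most like each coregulator over the same libraries are given as a description of shared variation over 32 libraries of 1 tissue. For Trim24 they were Supt5h, a transcription elongation factor subunit (r 0.91), Mapk14, the p38-alpha kinase (0.91), and Pitpnm1 (0.90). Mapk14 averaged 129 ± 8.02 CPM at BPA 25, 124 ± 13.96 CPM at BPA 250 and 243 ± 30.6 CPM in controls. Cited4 was most like Gcn1 (0.88), Mapk14 (0.88) and Prrc2a (0.87). Ncor1 was most like Sptan1 (0.88), Spen (0.83) and Faim (0.83), and Ncoa2 most like Sptan1 (0.83), Arhgef12 (0.82) and Dync1h1 (0.81). SPEN is itself a corepressor that binds NCOR complexes. Nrip1 was most like Jpt2 (0.77), Pank2 (0.75) and Gramd1c (0.75), Ncoa1 most like Notch2 (0.79) and Fmo2 (0.76), and Ppargc1a most like Cacna1e (0.83), Cubn (0.80) and Sult1a1 (0.79).

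No coregulator gene was called at EE2 0.05, EE2 0.5 or BPA 2500 with edgeR, and none with DESeq2. At an unadjusted p under 0.05 there were 1, 2 and 2 of the 7. Of all genes, 0.0451%, 0.556% and 0% were called at these doses with edgeR, and at BPA 2500, where that is no gene, 1353 had an unadjusted p under 0.05 and DESeq2 called 87. For the mean of both EE2 groups 0 of 7 genes were called (1 at an unadjusted p under 0.05, 0 with DESeq2), beside 0.0676% of all genes. For the mean of the 5 BPA groups 0 of 7 were called with edgeR (4 at an unadjusted p under 0.05) and 2 with DESeq2, Nrip1 and Ppargc1a, beside 1.34% of all genes with edgeR. Nrip1 was closest, with a log2 fold change of -0.50 (SE 0.13, adjusted p 0.0504). It was called with edgeR without any 1 of EE2 0.5 replicate 1, BPA 2.5 replicate 4, BPA 250 replicate 2, BPA 2500 replicate 1 or 3 and BPA 25000 replicate 3.

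BPA and EE2 were compared directly over their dose means, which differ in dose and so do not match exposures. No coregulator gene passed with edgeR (2 at an unadjusted p under 0.05), beside 0.841% of all genes, and Trim24 passed with DESeq2. Trim24 had a log2 difference of -0.61 for BPA minus EE2 (SE 0.18, 95% interval -0.97 to -0.24, adjusted p 0.100), and it passed without BPA 2.5 replicate 4, BPA 2500 replicate 3 or BPA 25000 replicate 3. Cited4 had a difference of -0.52 (95% interval -0.98 to -0.07, adjusted p 0.269). For the others the intervals were -0.29 to 0.14 for Nrip1, -0.22 to 0.27 for Ncoa1, -0.26 to 0.28 for Ncoa2, -0.20 to 0.05 for Ncor1 and -0.30 to 0.95 for Ppargc1a.

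Other coregulators were examined as lists. Of 24 further coactivators 21 were tested, and 3 were called at BPA 2.5 (2 higher), 3 at BPA 25 (1 higher) and 2 at BPA 250 (1 higher). These are 14.3%, 14.3% and 9.52% of the list, beside 11.4%, 1.92% and 8.79% of all genes, so the shares at BPA 2.5 and BPA 250 are near the background. Cited2, which shares the EP300-binding domain of Cited4, was called higher at BPA 25 and BPA 250, where Cited4 was called lower. It measured 145 ± 58.1 CPM at BPA 250 and 41.2 ± 5.72 CPM in controls (log2 fold change 1.81, adjusted p 0.00527). It was also called higher at BPA 2.5 (1.33, adjusted p 0.0111) and BPA 25 (1.24, adjusted p 0.0491). The high Cited2 mean was not particular to these doses. Without an edgeR call, it was 98.6 ± 20.3 CPM at EE2 0.05 and 86.8 ± 20.1 CPM at EE2 0.5. It was 81.3 ± 17.8 CPM at BPA 2500 and 91.9 ± 43.3 CPM at BPA 25000. For the BPA mean against control, Cited2 was called higher (1.31, adjusted p 0.0285). Smarca4, the ATPase of the SWI/SNF remodelling complex, fell at the same doses as Trim24, to 107 ± 17.7 CPM at BPA 25 and 94.97 ± 22.6 CPM at BPA 250, against 192 ± 20.4 CPM in controls (log2 fold change -0.85, adjusted p 0.0393, and -1.01, adjusted p 0.00641). Prmt1, an arginine methyltransferase that modifies histone H4, measured 47.5 ± 9.4 CPM at BPA 2.5 and 96.8 ± 19.6 CPM in controls (-1.03, adjusted p 0.00511). None of the list was called at EE2 0.05, EE2 0.5, BPA 2500 or BPA 25000 with edgeR. At an unadjusted p under 0.05 there were 3 at each of these doses, and DESeq2 called 1, 2, 0 and 1. The list's median log2 fold change was 0.12 at BPA 2.5, -0.08 at BPA 25 and -0.07 at BPA 250, beside 0.05, 0.00 and -0.02 over all genes.

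Of 22 corepressors and members of their complexes 19 were tested, with 1 called higher and 1 lower at BPA 2.5, and 2 lower at BPA 250. That is 10.5% of the list at each dose, near the 11.4% and 8.79% of all genes. Ctbp2, a corepressor that binds short peptide motifs of DNA-binding repressors, was the one called higher at BPA 2.5 (log2 fold change 0.47, adjusted p 0.0145), a call lost with only the groups compared (adjusted p 0.149) and without the 4 libraries that stand apart (adjusted p 0.0896). Hdac1, a histone deacetylase, fell at both, to 148 ± 26.7 CPM at BPA 2.5 and 143 ± 38.9 CPM at BPA 250, against 240 ± 37.0 CPM in controls (log2 fold change -0.70, adjusted p 0.0220, and -0.75, adjusted p 0.0239). Without an edgeR call, the Hdac1 mean was also below that of controls in every other exposed group. It was 183 ± 20.7 CPM at EE2 0.05, 173 ± 14.3 CPM at EE2 0.5 and 154 ± 37.2 CPM at BPA 25. It was 175 ± 53.4 CPM at BPA 2500 and 161 ± 26.1 CPM at BPA 25000. At BPA 25 edgeR called 0 of the list, with 10 at an unadjusted p under 0.05 and 2 with DESeq2. At EE2 0.05, EE2 0.5, BPA 2500 and BPA 25000 the count was 0 with edgeR, with 1, 1, 2 and 3 at an unadjusted p under 0.05, and 0 with DESeq2. The median log2 fold change of the list was -0.19 at BPA 250, beside -0.02 over all genes.

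Among the nuclear receptors themselves, 25 of 26 were tested. At BPA 2.5, 5 were called higher and 1 lower, and at BPA 250, 3 higher and 2 lower. These are 24% and 20% of the list, beside 11.4% and 8.79% of all genes. Thrb, a thyroid hormone receptor, measured 25.1 ± 7.72 CPM at BPA 2.5 and 21.1 ± 10.4 CPM at BPA 250, against 8.82 ± 3.37 CPM in controls (log2 fold change 1.51, adjusted p 0.0150, and 1.26, adjusted p 0.0454). Nr2f1, the orphan receptor also called COUP-TFI, measured 83.9 ± 14.003 CPM at BPA 250 and 32.1 ± 4.78 CPM in controls (1.39, adjusted p 0.0155). At BPA 25 edgeR called none of the list (10 at an unadjusted p under 0.05, 7 with DESeq2). At EE2 0.05, EE2 0.5, BPA 2500 and BPA 25000 it also called none, with 4, 6, 2 and 8 at an unadjusted p under 0.05, and DESeq2 called 0, 2, 0 and 1.

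Of 20 estrogen response genes 19 were tested, with 1 called higher and 3 lower at BPA 2.5, 1 lower at BPA 25, 1 higher and 1 lower at BPA 250, and 1 lower at BPA 25000. The shares called at these doses were 21.1%, 5.26%, 10.5% and 5.26% of the list, beside 11.4%, 1.92%, 8.79% and 2.32% of all genes, and the shares at BPA 25 and BPA 25000 are a single gene each. Igf1, the growth factor through which uterine stroma acts on the epithelium, fell at BPA 25000, the dose at which Nrip1 fell, to 120 ± 66.3 CPM against 441 ± 198 CPM in controls (log2 fold change -1.88, adjusted p 0.0245), and at BPA 2.5 (105 ± 20.3 CPM, -2.07, adjusted p 0.00393). The low Igf1 mean was not particular to these doses. Without an edgeR call, it was 171 ± 58.1 CPM at EE2 0.05 and 161 ± 43.6 CPM at EE2 0.5. It was 229 ± 103 CPM at BPA 25, 225 ± 63.7 CPM at BPA 250 and 205 ± 111 CPM at BPA 2500. At EE2 0.05, EE2 0.5 and BPA 2500 edgeR called none of the list, with 4, 4 and 2 at an unadjusted p under 0.05. DESeq2 called 0, 2 and 0 there. The list's median log2 fold change was -0.34 at BPA 25000, beside 0.02 over all genes.

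Of 22 PGC-1alpha target and mitochondrial genes 20 were tested. At BPA 2.5, the dose at which Ppargc1a rose, 2 were called higher and 6 lower, 40% of the list beside 11.4% of all genes. The lower ones included Cox5b, a subunit of cytochrome oxidase (31.001 ± 4.17 CPM, against 68.3 ± 17.2 CPM in controls, log2 fold change -1.14, adjusted p 0.00261), Cycs, which encodes cytochrome c (89.0 ± 34.6 CPM, against 214 ± 43.0 CPM, -1.26, adjusted p 0.00429), and Sod2, the mitochondrial superoxide dismutase (152 ± 13.2 CPM, against 271 ± 56.2 CPM, -0.84, adjusted p 0.00401). Over the 20 tested genes at BPA 2.5, 12 log2 fold changes were positive and 8 negative. Their median was 0.19, beside 0.05 over all genes, so the list did not fall as a set. Cox5b was also called lower at EE2 0.5 (-0.94, adjusted p 0.0425), the 1 call of the list there. At BPA 25000, 2 were called higher and 2 lower, 20% of the list beside 2.32% of all genes. Sod2 was among those lower (160 ± 8.0 CPM, against 271 ± 56.2 CPM in controls, -0.76, adjusted p 0.0248, and 0.123 without control replicate 2). Pdk4, a kinase that shuts down pyruvate dehydrogenase, measured 81.7 ± 61.3 CPM at BPA 25000 and 11.7 ± 3.51 CPM in controls (2.79, adjusted p 0.0254), and Cpt1b, which admits fatty acids to mitochondria, 21.7 ± 7.27 CPM and 7.11 ± 0.598 CPM in controls (1.61, adjusted p 0.0245). At EE2 0.05, BPA 25, BPA 250 and BPA 2500 edgeR called none, with 9, 5, 4 and 6 at an unadjusted p under 0.05, and DESeq2 called 1, 2, 2 and 0.

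For each list and dose, up to 3 called genes with the smallest p were followed as single libraries were left out. Of these 32 fold changes, 8 kept their call without each of the 32 libraries: Cited2, Prmt1, Igf1, Cox5b, Sod2 and Cycs at BPA 2.5, and Cited2 and Smarca4 at BPA 250. None of the 8 calls of the coregulators themselves did. The least stable values of the genes named above came without BPA 25 replicate 1 for Smarca4 (adjusted p 0.164), Ncoa5 (0.158) and Cited2 (0.190) at BPA 25. They came without BPA 250 replicate 1 for Hdac1 (0.107) and Nr2f1 (0.0528) at BPA 250. They came without BPA 25000 replicate 2 for Igf1 (0.114), Cpt1b (0.115) and Pdk4 (0.122) at BPA 25000, and without BPA 250 replicate 4 for Thrb at BPA 250 (0.136). At BPA 2.5 the highest adjusted p was 0.0780 for Hdac1, without BPA 2.5 replicate 1, and 0.0709 for Thrb, without control replicate 3. At EE2 0.5 it was 0.199 for Cox5b, without control replicate 3. No fold change reversed its sign.

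Other settings also ended calls of listed genes. In a fit of only the groups compared, the adjusted p at BPA 2.5 was 0.0547 for Prmt1, 0.0623 for Cited2, 0.0749 for Hdac1, 0.0743 for Thrb, 0.0503 for Cox5b, 0.0595 for Sod2 and 0.0701 for Cycs. In the same setting it was 0.0831 for Thrb at BPA 250, 0.0608 for Igf1 at BPA 25000 and 0.0524 for Cox5b at EE2 0.5. Without the 4 libraries that stand apart it was 0.161 for Hdac1, 0.112 for Thrb, 0.0614 for Igf1 and 0.0589 for Sod2 at BPA 2.5, and 0.0808 for Hdac1 and 0.112 for Thrb at BPA 250. Without the filter on low counts it was 0.0538 for Cited2 and 0.0572 for Ncoa5 at BPA 25, and 0.050017 for Thrb at BPA 250. With DESeq2 size factors it was 0.0535 for Ncoa5 at BPA 25.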

How the data were processed

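The values are raw, whole-number gene counts, which the authors deposited as a single table of 32 libraries. RNA was extracted with a Qiagen RNeasy Lipid kit, per the labels' protocols. Per the submitters' processing notes, bcl2fastq, TopHat and edgeR were used with build rn5. Their versions, the gene models and any strand setting are not stated there. Gene IDs were named through the RefSeq gene table of GRCr8, used for names only: 17167 rows matched and 160, with 1.82% of counts, did not. 1766 rows were at 0 in every library, and overlapping genes may share reads.

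The analysis used edgeR 4.0.16 under R 4.3.3. Its filterByExpr (minimum count 10, minimum total 15) left 13312 genes, libraries were scaled by TMM, and a quasi-likelihood model with 1 mean for each of the 8 groups gave 12 comparisons, adjusted by Benjamini-Hochberg over all tested genes with a threshold of 0.05. The standard error is the fold change over the root of F. CPM use TMM-scaled library sizes, and likeness uses log2 CPM with a prior count of 2. Total counts were at least 11777809 per library. Precision also depends on the spread between libraries of a group. Nrip1, with at least 1957 reads per library, had a biological coefficient of variation of 18.5%.

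The coregulators and the lists were chosen with earlier results of these data known. Named genes are those with an adjusted p under 0.05, the smallest p of each coregulator, and up to 3 called genes per other list and comparison. Some genes that this rule selects are not reported here. Alternatives were DESeq2 1.42.0 size factors and tests, no filter, only the groups compared, leaving out each library, and leaving out the 4 libraries that stand apart. Counts were simulated for the comparison of BPA 2.5 with controls (13241 genes, 200 changed). In them, 44% of genes changed by 1 on the log2 scale and 82.4% of those changed by 2 were recovered. Of the calls, 6.11% were false. These rates describe the simulated counts, and whether they hold for the real libraries was not tested.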

Additional observations from a re-analysis of the deposited data

Results flagged for a closer look

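Of 56 sets of 4 libraries, 1 for each coregulator gene and group, 3 held a library far from the other 3 by Dixon's criterion, which chance gives in about 1 set of 20. Ncoa1 was 64.52 CPM in BPA 25000 replicate 3, against 90.0, 93.5 and 93.9 CPM in the others. Trim24 was 94.7 CPM in the same library, against 29.3, 37.5 and 35.9 CPM in the others, and this library is among the 4 that stand apart by rank correlation. Cited4 was 27.04 CPM in EE2 0.05 replicate 4, against 13.6, 14.3 and 12.1 CPM in the others.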

How the results depend on the processing

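No fold change named for the coregulators reversed under any alternative, and all 8 of their calls held with DESeq2 size factors, without a filter on low counts and with the DESeq2 test. The count of the 7 coregulator genes called moved as follows. At BPA 2.5 it was 2, and 0 both with only the groups compared and without the 4 libraries that stand apart. For the BPA mean against control it was 0, and 2 both with DESeq2 and without those 4 libraries. For the BPA mean against the EE2 mean it was 0, and 1 in both of these settings. For the slope over BPA dose it was 1, then 0 with only the groups compared, 2 with DESeq2 and 0 without the 4 libraries. For any of the 8 groups it was 5, and 3 without the 4 libraries. As single libraries were left out, the count ranged over 0 to 2 at BPA 2.5, 0 to 2 at BPA 25, 0 to 3 at BPA 250, 0 to 1 at BPA 25000, 0 to 2 for the BPA mean, 0 to 1 for BPA against EE2, 0 to 2 for the slope and 4 to 6 for any group. It was 0 throughout at EE2 0.05, EE2 0.5, BPA 2500 and for the EE2 mean. The cause of these moves was not tested.

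Counts over all genes moved more than 1.5 times in several settings. With only the groups compared they were 130 in place of 6 at EE2 0.05, 301 in place of 74 at EE2 0.5, 57 in place of 1524 at BPA 2.5, 1195 in place of 256 at BPA 25, 1 in place of 0 at BPA 2500, 612 in place of 9 for the EE2 mean, 12 in place of 178 for the BPA mean and 2 in place of 615 for the slope. With DESeq2 they were 65, 442, 1080 (BPA 25), 1842 in place of 1170 at BPA 250, 87 at BPA 2500, 770 in place of 309 at BPA 25000, 333 for the EE2 mean, 776 for the BPA mean, 383 in place of 112 for BPA against EE2 and 1073 for the slope. Without the filter they were 42 at EE2 0.5, 159 at BPA 25 and 116 for the BPA mean. Without the 4 libraries they were 21, 168, 526 (BPA 2.5), 1374 (BPA 25), 74 (BPA 2500), 751 (BPA 25000), 91 (EE2 mean), 629 (BPA mean) and 160 (slope). At BPA 25 the share of higher calls was 49.6% with TMM and 60.4% with DESeq2 size factors. Without single libraries the counts ranged over 0 to 14 at EE2 0.05, 0 to 206 at EE2 0.5, 594 to 1984 at BPA 2.5, 0 to 805 at BPA 25, 179 to 1630 at BPA 250, 0 to 0 at BPA 2500, 2 to 502 at BPA 25000, 0 to 152 for the EE2 mean, 1 to 537 for the BPA mean, 24 to 224 for BPA against EE2, 69 to 1615 for the slope and 3478 to 5084 for any group, so the background shares printed beside the coregulators move with single libraries too.

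No paired analysis was possible because the labels give the libraries no replicate numbers shared between groups. Depth limited Ppargc1a most, with 22 reads in its lowest library.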
